A study of Mus musculus with 18 samples.

Results

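The natriuretic peptide system of the mouse heart was described through 10 genes: the peptide precursors Nppa, Nppb and Nppc, the receptors Npr1, Npr2 and Npr3, the processing enzymes Corin, Furin and Pam, and the degrading enzyme Mme. They were chosen by symbol, and all 10 were found among the 25230 symbols of the count table. The 18 bulk RNA-seq libraries come from hearts of male C57BL/6J mice whose left anterior descending coronary artery had been ligated, with tissue collected 3 days later. Of each of 3 regions (atria, infarcted left ventricle (LV), non-infarcted LV) 3 libraries come from mice that received liraglutide, a drug that activates the GLP-1 receptor, and 3 from PBS-treated mice. All 6 groups therefore carry a ligated artery, non-infarcted LV is tissue of the same operated hearts, and sham-operated mice are not analysed here. No source used here gives the dose, start and schedule of liraglutide or how many mice were used. The labels call the libraries of a group biological replicates without saying which share a mouse, so the p values measure the spread between these libraries.

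Natriuretic peptides are hormones of heart muscle. Atrial cardiomyocytes store the precursor of ANP, the product of Nppa, in granules and release it on stretch, while BNP, the product of Nppb, is made in atria and in ventricles under load or injury, and CNP, the product of Nppc, comes mainly from endothelium. ANP and BNP act through Npr1, a membrane guanylyl cyclase that makes cGMP, CNP acts through the related cyclase Npr2, and Npr3 binds and removes all of these peptides. Corin cleaves the ANP precursor at the cardiomyocyte surface, furin cleaves the BNP precursor inside the cell, Pam is an amidating enzyme and a main membrane protein of atrial granules, and neprilysin, the product of Mme, degrades the circulating peptides.

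On mouse chromosome 4 (GRCm38, the mm10 build, GENCODE vM21 annotation) Nppb lies at chr4:147985788-147987205 and Nppa at chr4:148000722-148002079, both on the plus strand with 13516 bp between them. The other members lie elsewhere: Npr2 on chromosome 4 (chr4:43631935-43651244, plus strand), Npr1 (chr3:90450591-90465866, minus) and Mme (chr3:63241537-63386030, plus) on chromosome 3, and Nppc (chr1:86666291-86670571, minus) and Pam (chr1:97795114-98095646, minus) on chromosome 1. Npr3 lies at chr15:11839896-11907287, Corin at chr5:72300025-72504473 and Furin at chr7:80388585-80405436, all on the minus strand. The proximal promoters of Nppa and Nppb are shown because these neighbouring genes differed in how their levels were spread over the 3 regions. Both are RefSeq windows on GRCm38.p6 of 250 bases before and 50 bases from the start of transcription, plus strand, 5′ to 3′, at chr4:148000472-148000771 for Nppa and chr4:147985650-147985949 for Nppb. Capitals mark matches to the motifs searched.
Nppa: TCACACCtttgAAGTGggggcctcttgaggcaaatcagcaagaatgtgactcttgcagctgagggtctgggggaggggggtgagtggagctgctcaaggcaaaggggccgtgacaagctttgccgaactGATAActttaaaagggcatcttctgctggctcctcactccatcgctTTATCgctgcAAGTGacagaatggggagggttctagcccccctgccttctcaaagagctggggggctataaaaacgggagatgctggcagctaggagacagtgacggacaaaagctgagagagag
Nppb: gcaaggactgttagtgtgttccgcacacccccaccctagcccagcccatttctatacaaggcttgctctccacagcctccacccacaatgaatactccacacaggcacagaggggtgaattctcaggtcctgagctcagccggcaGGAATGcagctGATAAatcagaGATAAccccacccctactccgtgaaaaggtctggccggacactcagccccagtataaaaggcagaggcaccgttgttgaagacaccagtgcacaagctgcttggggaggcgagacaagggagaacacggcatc
The motifs were searched on both strands. GATAA, a core of GATA factor sites, had 2 matches in each promoter: in Nppa they begin 121 and 75 bases before the start of transcription, the second on the minus strand, and in Nppb 94 and 83 bases before it. AAGTG, a core of NKX2-5 sites, matched in Nppa at 239 and 65 bases before the start, and GGTGTGA, a T-box site, at 250 bases before it on the minus strand. CATTCC, a TEAD site, matched once in Nppb, 105 bases before the start on the minus strand. All these distances are from the RefSeq start. For Nppa it is the first base of the GENCODE span given above. For Nppb it lies inside that gene's span, so all matches in the Nppb window fall within the gene as GENCODE annotates it. TGANTCA, a CArG box and a MEF2 site had no match in either window. Of 32851 mouse promoters of the same length, 25.4% hold GATAA, 46.4% AAGTG, 3.98% GGTGTGA and 14.7% CATTCC, so these matches are descriptions of the letters only.

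Library totals ran from 4280459 to 21853482 counts, so that 3 counts correspond to between 0.137 and 0.701 CPM, the unit used for library values (counts scaled to an equal total in every library). Marker genes went with the labelled regions: Myl7, the atrial myosin light chain, was at 3705 to 6009 CPM in atria and at 0 to 81.9 CPM in LV, and Myl2, its ventricular counterpart, at 2.08 to 924 CPM in atria and at 7695 CPM or more in LV. Of the atrial libraries 3 held markers of other tissue. Myl2 was at 924 CPM in liraglutide replicate 3 and at 275 CPM in liraglutide replicate 1, against 8.82 CPM or less in the other 4, and the ventricular Myl3 was at 650.0 and 311 CPM in those libraries, against 53.9 to 114 CPM. PBS replicate 2 had 79.2 CPM of Adipoq and 88.8 CPM of Ucp1, both adipocyte genes. Test results that rest on 1 of these libraries are given with and without it.

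Nppa was the most abundant of the members in every atrial library. It had 29777, 34802 and 26623 CPM in atria with liraglutide and 35262, 32128 and 37687 CPM in atria with PBS, which made it the gene with the second highest count in all 6 libraries (2.66 to 3.77% of counts). In infarcted LV it had 262, 352 and 329 CPM with liraglutide and 488, 512 and 303 CPM with PBS. In non-infarcted LV it had 237, 226 and 133 CPM with liraglutide and 254, 391 and 135 CPM with PBS. Atria and LV were far apart, while infarcted and non-infarcted LV overlapped among PBS libraries and did not among liraglutide libraries. In the annotation 532 bp of the exons of Nppa, 61.5% of them, lie opposite an antisense gene that is not in the count table, and no source used here states the strand setting of the counting. The other members share at most 11.7% of their exons with another gene.

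Nppb, the BNP precursor, did not follow this order. It had 1654, 1309 and 1151 CPM in atria with liraglutide and 921, 753 and 1192 CPM in atria with PBS. Infarcted LV held 906, 1056 and 1121 CPM in liraglutide mice and 1013, 1074 and 1007 CPM in PBS mice. Non-infarcted LV held 364, 491 and 522 CPM in liraglutide mice and 400.2, 363 and 754 CPM in PBS mice. With PBS infarcted LV was thus at the level of atria, whereas with liraglutide every atrial library was above every infarcted one. All 6 libraries of infarcted LV were above all 6 of non-infarcted LV. Per kilobase of exon, the scale on which levels of different genes can be set side by side, Nppa exceeded Nppb in atria (35145 ± 4769 against 1756 ± 329 CPM per kb with liraglutide, 40492 ± 3222 against 1223 ± 284 with PBS, SD, n = 3). In infarcted LV the order was the other way, with Nppa at 363 ± 53.9 and Nppb at 1316 ± 141 CPM per kb with liraglutide, and at 502 ± 132 and 1321 ± 47.5 CPM per kb with PBS. Nppb was also the higher one in every non-infarcted library, with Nppa at 230 ± 65.9 and 300.4 ± 148 CPM per kb and Nppb at 588 ± 107 and 648 ± 276 CPM per kb for liraglutide and PBS. Nppc had 0 to 4 counts per library, so its level is at or near the floor and it entered no test.

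**Figure D1:**
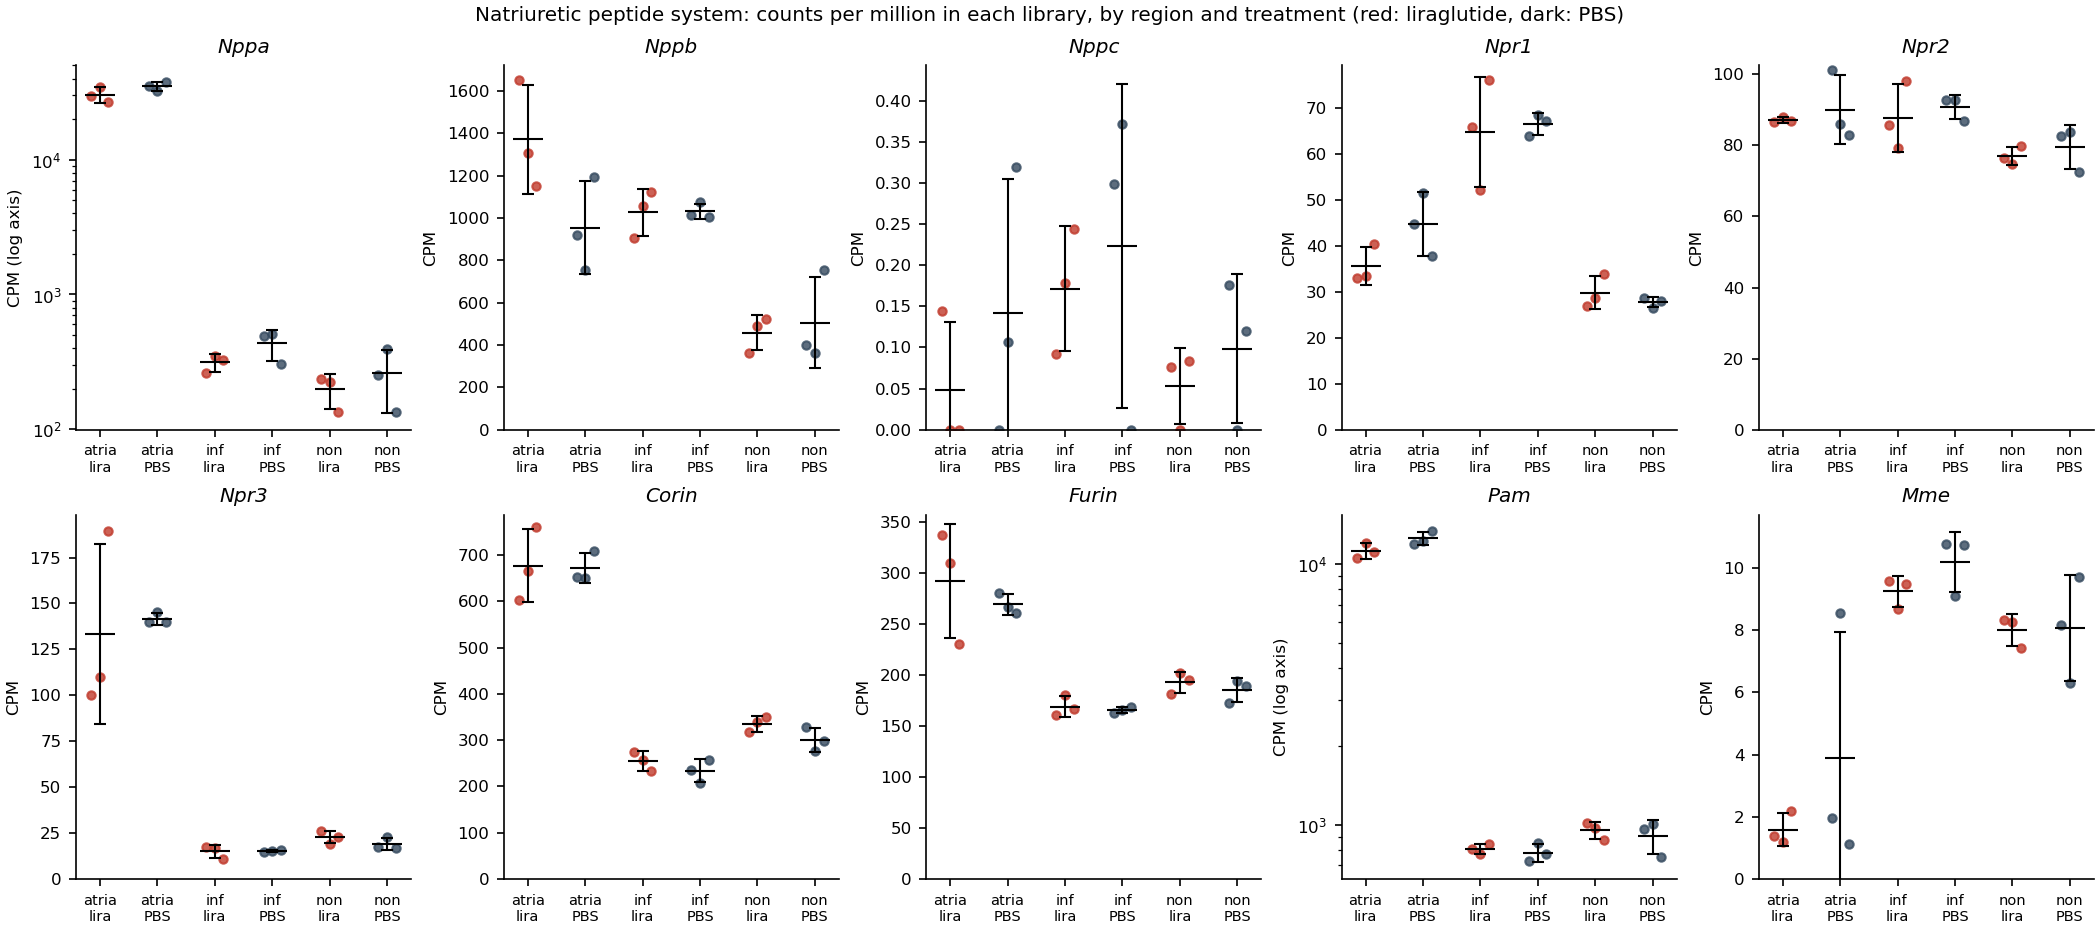
CPM of the 10 members in each library (points), with the group mean and SD (bars, n = 3, cut at 0 where the SD exceeds the mean), for atria, infarcted (inf) and non-infarcted (non) LV with liraglutide (lira, red) or PBS (dark); the axes of Nppa and Pam are logarithmic. Nppa lies between 26623 and 37687 CPM in atria and between 133 and 512 CPM in LV. Over both treatments Nppb in infarcted LV (906 to 1121 CPM) overlaps the atria (753 to 1654 CPM), but among liraglutide libraries it does not.

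Of the processing enzymes, Pam stood near Nppa in atria by rank of counts, but not per kilobase of exon. On that scale Pam was at 0.0253 to 0.0304 of the Nppa level with liraglutide and at 0.0247 to 0.0278 with PBS. It had 10595, 12100.1 and 11109 CPM in atria with liraglutide and 11990.0, 12272 and 13389 CPM with PBS, rank 4 to 6 of all genes, against 724 to 850.5 CPM in infarcted LV and 755 to 1018 CPM in non-infarcted LV over both treatments. Corin had 603 to 760.2 CPM in atria, 208 to 275 CPM in infarcted LV and 277 to 351 CPM in non-infarcted LV. These ranges did not overlap, and infarcted LV was the lowest. Furin was more even, at 229.7 to 337 CPM in atria, 160.5 to 179.9 CPM in infarcted LV and 172 to 202 CPM in non-infarcted LV.

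The 3 receptors each had their own order of regions. Npr1 had 66.0, 52.2 and 76.2 CPM in infarcted LV with liraglutide and 63.9, 68.6 and 67.3 CPM with PBS. Atria had 33.0, 33.6 and 40.5 CPM of Npr1 with liraglutide and 44.9, 51.6 and 37.8 CPM with PBS. Non-infarcted LV had 26.9, 28.7 and 33.9 CPM of Npr1 in liraglutide mice and 28.8, 26.5 and 28.1 CPM in PBS mice. Infarcted LV was highest without overlap. Npr3, the clearance receptor, had 99.9, 110.1 and 189 CPM in atria with liraglutide and 139.9, 145 and 139.7 CPM with PBS, against 11.1 to 17.2 CPM in infarcted LV and 17.0 to 26.2 CPM in non-infarcted LV. The highest value of Npr3 was in atrial liraglutide replicate 3, which had the most Myl2. Npr2, the CNP receptor, was at 79.3 to 101 CPM in atria and infarcted LV and at 72.4 to 83.6 CPM in non-infarcted LV. These ranges overlapped over both treatments. Within an arm, infarcted LV was above non-infarcted LV without overlap with PBS only. Atria were above non-infarcted LV without overlap with liraglutide only. Mme had 1.37, 1.20 and 2.20 CPM in atria with liraglutide and 1.97, 8.55 and 1.12 CPM with PBS, against 8.68 to 10.8 CPM in infarcted LV and 6.30 to 9.71 CPM in non-infarcted LV. The single high atrial value of Mme was in the library with Adipoq and Ucp1.

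Between atria and LV the first question is which parts of the system are atrial. Nppa, its granule protein Pam, the protease Corin, furin and the clearance receptor Npr3 were higher in atria than in either LV region, in liraglutide and in PBS mice. In edgeR's quasi-likelihood test with Benjamini-Hochberg adjustment, 6 of the 9 members tested were higher and 1 lower in atria than in non-infarcted LV with liraglutide, where 47.5% of 13431 genes were called, and 6 were higher and 0 lower with PBS, where 51.8% of 13250 genes were called. Against infarcted LV, 5 were higher and 2 lower with liraglutide (43.2% of 13457 genes called) and 5 higher and 1 lower with PBS (52.3% of 13249). With about every other gene called, the count alone does not set the members apart. The median log2 fold change of the members against non-infarcted LV was 1.01 with liraglutide and 0.78 with PBS, against 0.01 over all genes tested in both. These comparisons share the same atrial libraries. Since this is bulk RNA, a difference in the share of a cell type and a difference in RNA per cell cannot be told apart.

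Nppa was 153-fold higher in atria than in non-infarcted LV with liraglutide and 135-fold higher with PBS by the ratio of mean CPM. The fitted log2 fold changes were 7.27 (SE 0.300, adjusted p = 9.89e-07) and 6.97 (SE 0.445, adjusted p = 4.65e-05). Pam was 3.57 (SE 0.128, adjusted p = 1.46e-07) and 3.67 (SE 0.128, adjusted p = 7.42e-09) higher on the log2 scale. Npr3 followed with 2.52 (SE 0.203, adjusted p = 2.34e-05) and 2.77 (SE 0.110, adjusted p = 1.70e-08). Corin rose by 1.01 and 1.03 and Furin by 0.62 and 0.41 on the same scale, with adjusted p of 0.0208 for Furin with liraglutide as the highest of these 4. The Furin call with liraglutide was lost without any 1 of 5 libraries (atrial replicates 1 and 2, non-infarcted replicates 1, 2 and 3), with adjusted p of 0.0578 to 0.0819. Npr2 did not pass in any of the 4 comparisons of atria with LV (log2 fold changes -0.04 to 0.18). Npr2 was called only without atrial liraglutide replicate 3, against non-infarcted LV (0.26, adjusted p = 0.0117).

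Npr1 stood between the LV regions. Against infarcted LV it fell by 0.79 in atria with liraglutide (SE 0.128, adjusted p = 0.000771) and fell by 0.59 with PBS (SE 0.103, adjusted p = 0.000435). Against non-infarcted LV it was higher in atria with PBS (0.57, SE 0.116, adjusted p = 0.00185), and 0.25 with liraglutide did not pass (SE 0.118, adjusted p = 0.104), although it did without non-infarcted replicate 3 (0.36, adjusted p = 0.0421) and in a fit of all 18 libraries (0.29, adjusted p = 0.0454). Nppb was higher in atria than in non-infarcted LV with liraglutide (1.59, SE 0.212, adjusted p = 0.000396). With PBS the value was 0.78 (SE 0.389, adjusted p = 0.154), but 1.23 without non-infarcted PBS replicate 3 (adjusted p = 0.00219). It was 0.81 in the fit of all 18 libraries (adjusted p = 0.0294) and 0.85 with same-numbered libraries as a block (adjusted p = 0.000108). Between atria and infarcted LV Nppb did not pass with either treatment, at 0.50 (SE 0.186, adjusted p = 0.0538) and -0.13 (SE 0.163, adjusted p = 0.527). It passed without atrial replicate 3 of the arm concerned, at 0.67 with liraglutide (adjusted p = 0.00121) and -0.33 with PBS (adjusted p = 0.0395), and with liraglutide also in DESeq2 (0.49, adjusted p = 0.0226).

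Mme fell by 2.32 in atria with liraglutide against non-infarcted LV (SE 0.219, adjusted p = 2.81e-05) and fell by 2.46 against infarcted LV (SE 0.226, adjusted p = 2.37e-05) on the log2 scale. With PBS the values were -1.03 (SE 0.657, adjusted p = 0.243) and -1.26 (SE 0.645, adjusted p = 0.158). Without atrial PBS replicate 2 they were -2.38 (adjusted p = 9.13e-05) and -2.61 (adjusted p = 5.05e-06), and both also passed in the fit of all 18 libraries (-0.999 and -1.26, adjusted p = 0.0493 and 0.0171). The 5 adipocyte markers summed to 325 CPM in that library and to at most 14.9 CPM in every other atrial library, with Ucp1 at 0 in 3 of those 5. Their part in its Mme level was not tested. A test of whether the treatment changed the difference between atria and non-infarcted LV, over 13920 genes with 0% called, gave adjusted p of 0.938 for Nppb, 0.959 for Npr1 and 0.911 for Mme.

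**Figure D2:**
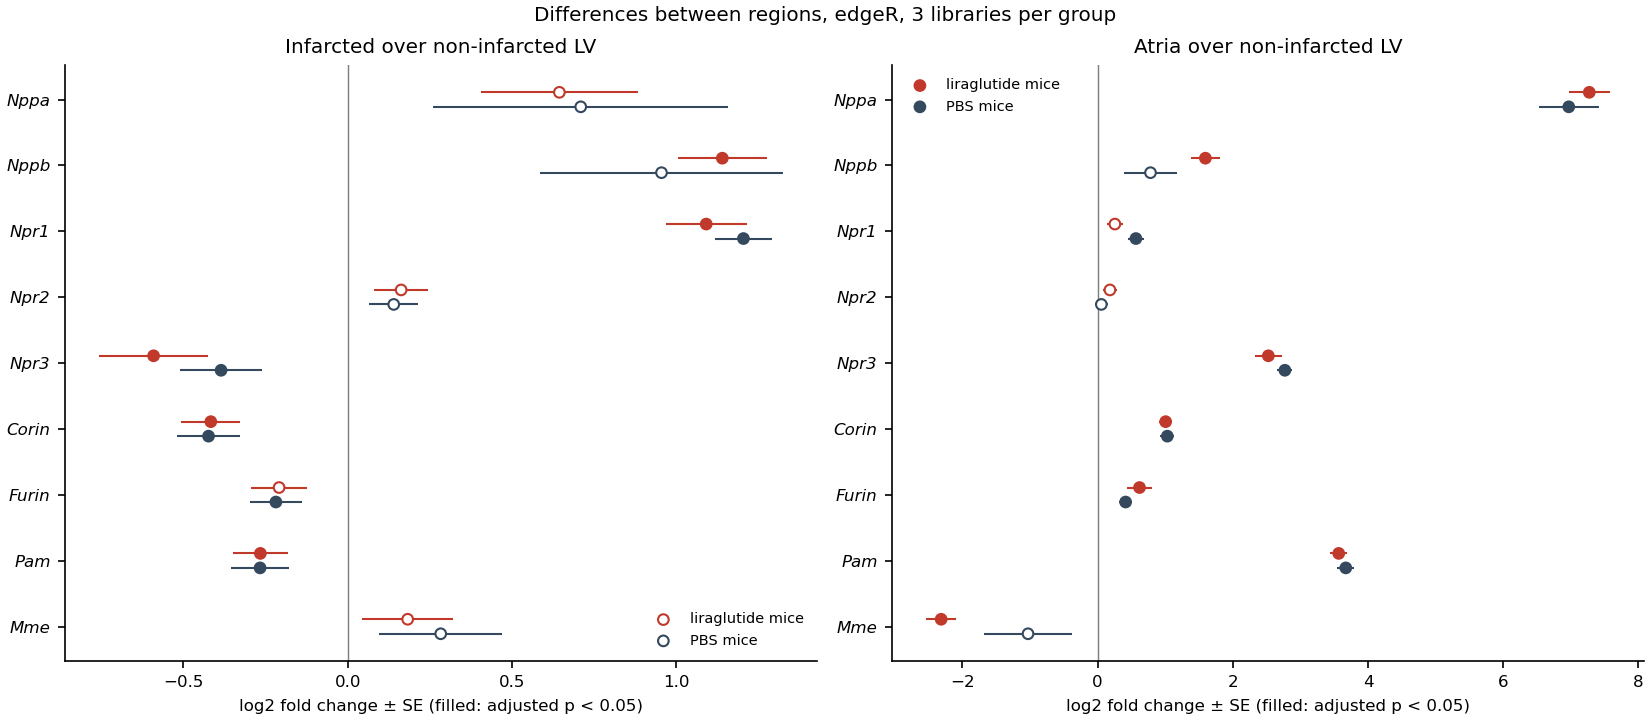
Log2 fold change ± SE of the 9 tested members for infarcted over non-infarcted LV (left) and atria over non-infarcted LV (right), in liraglutide (red) and PBS mice (dark), with 3 libraries per group and filled points for adjusted p under 0.05. On the left Npr1 is at 1.09 and 1.20 and Corin at -0.42 in both arms, and on the right Nppa is at 7.27 and 6.97 and Mme at -2.32 and -1.03.

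Between infarcted and non-infarcted LV the members moved in both directions. Npr1 was higher in infarcted LV with either treatment, while Npr3, Corin and Pam were lower, and Nppb was higher where it passed the test. With liraglutide 2 of 9 members tested were higher and 3 lower (49.8% of 13022 genes called), and with PBS 1 was higher and 4 were lower (47.4% of 12831). With a replicate block in PBS mice, where same-numbered libraries of the LV regions deviated together, 2 were higher and 4 lower, Nppa being the member added. The members' share of calls is near that of all genes. Their median log2 fold change was 0.16 and 0.14, against -0.02 over all genes in both.

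Npr1 rose by 1.09 on the log2 scale with liraglutide (SE 0.123, adjusted p = 7.76e-06) and by 1.20 with PBS (SE 0.0876, adjusted p = 5.76e-08). Markers of endothelium, a cell type known to carry it, moved too, and all 5 were higher in infarcted LV (median 0.94 in both arms). Their summed level there was 1608 to 1966 CPM with liraglutide and 1755 to 1929 CPM with PBS. In non-infarcted LV it was 896 to 932 and 887 to 934 CPM. None of these markers was at 0. Their part in the Npr1 difference was not tested. Fibroblast markers were likewise higher (6 of 6 in both arms), at 1481 to 1814 and 1552 to 1825 CPM summed in infarcted LV with liraglutide and PBS, against 661 to 799 and 638 to 794 CPM in non-infarcted LV. Of 4 smooth muscle markers 2 were higher with liraglutide and 1 with PBS. Of 4 endocardial markers 2 were higher in both arms, and 0 of either list were lower, beside 49.8% and 47.4% of all genes called. Pericyte markers were higher in 3 of 4 in both arms (median 0.96 with liraglutide, 0.88 with PBS). Macrophage markers were higher in 4 and 5 of 5 (median 0.80 and 1.01). Neutrophil markers were higher with liraglutide (5 of 5) but not called with PBS (0 of 5), and epicardial ones in 3 and 2 of 3 tested. None of these was lower. The part of these cell types in the Npr1 difference was not tested either.

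Nppb rose with liraglutide by 1.14 (SE 0.136, adjusted p = 2.72e-05), and had 0.95 with PBS, which did not pass (SE 0.368, adjusted p = 0.101). With any 1 library left out the PBS value stayed positive, at 0.74 to 1.41. That it did not pass depends on non-infarcted PBS replicate 3, without which it was 1.41 (adjusted p = 4.06e-11). It also passed in a fit of all 18 libraries (0.94, adjusted p = 0.0195). The difference between the arms was 0.19 (SE 0.405), with an adjusted p of 1.00, over 13920 genes of which 0% were called. Nppa had a log2 fold change of 0.64 with liraglutide (SE 0.239, adjusted p = 0.0678) and 0.71 with PBS (SE 0.448, adjusted p = 0.268). With liraglutide it passed without non-infarcted replicate 1 (0.77, adjusted p = 0.0448) or replicate 3 (0.43, adjusted p = 0.0145). It also passed in DESeq2 (0.63, adjusted p = 0.0484) and with the replicate block (0.67, adjusted p = 0.0296). In the PBS mice the replicate block gave 0.77 for Nppa with an adjusted p of 0.00048.

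Atrial markers also differed between the LV libraries. The 7 atrial markers summed to 132 to 153 CPM and 118 to 157 CPM in infarcted LV with liraglutide and PBS, against 98.9 to 207 and 69.5 to 295 CPM in non-infarcted LV. Kcna5 alone made 106 to 124 and 94.4 to 126 CPM of the infarcted sums, and it was lower in atria than in LV in all 4 comparisons. With liraglutide 3 of the 6 tested, Myl7, Sln and Dkk3, were lower in infarcted LV, and Nr2f2 and Kcna5 were higher. With PBS the same pair was higher and 0 were lower, with values of -4.00 for Myl7 (SE 1.71, adjusted p = 0.130) and -3.68 for Myl4 (SE 1.40, adjusted p = 0.101). The median log2 fold change of the list was -2.22 with liraglutide and -2.42 with PBS. Sln was at 0 in 1 LV library and Bmp10 in 3. Myl7 was at 32.1, 43.3 and 8.01 CPM in non-infarcted LV with liraglutide and at 81.9, 47.0 and 0 CPM with PBS, and Nppa was lowest (133 and 135 CPM) in the library of each arm with the least Myl7. Nppb was highest in those same libraries (522 and 754 CPM). At the other end the order did not hold. With the most Myl7 of its arm, Nppa was at 226 CPM with liraglutide and at 254 CPM with PBS. The libraries between had 237 and 391 CPM of Nppa. Infarcted LV had 0 to 3.59 CPM of Myl7 and 262 to 512 CPM of Nppa. In replicate 3 of the PBS mice Myl7 was at 0 in both LV regions, and there Nppa was at 303 CPM in infarcted and at 135 CPM in non-infarcted LV, with Myl4 at 2.57 and 2.28 CPM and Dkk3 at 7.24 and 1.80 CPM. The part of atrial RNA in the Nppa values was not tested.

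**Figure D3:**
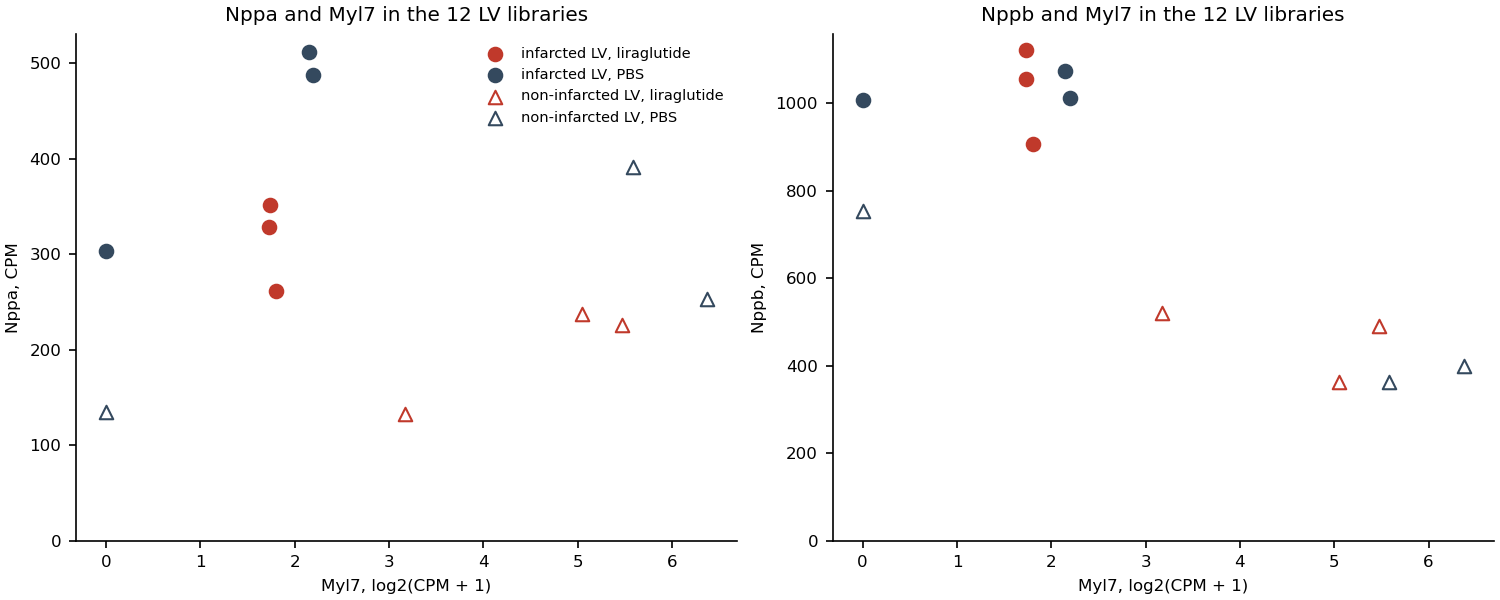
Nppa (left) and Nppb (right), in CPM, against Myl7, as log2(CPM + 1), in the LV libraries, with filled circles for infarcted and open triangles for non-infarcted LV, liraglutide in red and PBS in dark. The non-infarcted libraries with the least Myl7 in each arm have the lowest Nppa (133 and 135 CPM) and the highest Nppb (522 and 754 CPM). Those with the most Myl7 have 226 and 254 CPM of Nppa, below the 237 and 391 CPM of the libraries between.

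Among the processing and clearance genes, Corin fell by 0.42 in both arms (SE 0.0900 and 0.0971, adjusted p = 0.00136 with liraglutide and 0.00243 with PBS), and this call was kept whichever library was left out. Npr3 fell by 0.59 with liraglutide (SE 0.165, adjusted p = 0.00968) and by 0.39 with PBS (SE 0.125, adjusted p = 0.0195). Pam fell by 0.27 in both (SE 0.0845 and 0.0878, adjusted p = 0.0164 and 0.0207). Furin fell by 0.22 with PBS (SE 0.0782, adjusted p = 0.0313), and its -0.21 with liraglutide did not pass (SE 0.0862, adjusted p = 0.0553). The smaller of these calls were fragile. With PBS, Npr3 was lost in DESeq2 (adjusted p = 0.0591) and without infarcted replicate 1 or 2 or non-infarcted replicate 2 (adjusted p 0.0671 to 0.0958), Furin without any library other than non-infarcted replicate 1 (0.0650 to 0.108), and Pam without infarcted replicates 1 or 3 or non-infarcted replicates 1 or 2 (0.0689 to 0.0887). With liraglutide, Pam was lost without infarcted replicate 1 or non-infarcted replicate 1 or 2 (0.0547 to 0.0882). Furin passed there without infarcted replicate 2 or non-infarcted replicate 1 (0.0218 and 0.0433). It also passed in DESeq2 (0.0478), with no filter on low counts (0.0310) and with the replicate block (0.0279). In the fit of all 18 libraries neither Npr3 nor Furin passed with PBS (0.117 and 0.185). Cardiomyocyte markers fell beside them, 6 of 6 with liraglutide and 5 of 6 with PBS (median -0.41 and -0.42), with summed levels of 46107 to 56965 and 50149 to 55311 CPM in infarcted LV, against 70908 to 71698 and 65635 to 73301 CPM in non-infarcted LV. Whether these genes fell within cardiomyocytes was not tested. Npr2 and Mme did not pass in either arm (Npr2 0.16 and 0.14, Mme 0.18 and 0.28).

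The balance of the 3 receptors shows these differences together. Per kilobase of exon, Npr3 made up 29.5 to 42.7% of receptor mRNA in atria with liraglutide and 32.4 to 36.7% with PBS. In infarcted LV it made up 3.10 to 6.09% and 4.46 to 4.85%, and in non-infarcted LV 8.52 to 11.2% and 7.29 to 9.37%. Npr1 made up 36.7 to 41.8% in infarcted LV with liraglutide and 38.4 to 40.9% with PBS, against 22.7 to 26.6% and 21.4 to 25.3% in non-infarcted LV. The share of Npr2 was the largest of the 3 in all LV libraries. The shares in infarcted and non-infarcted LV did not overlap for any of the 3 receptors, and they are descriptions of values tested above.

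**Figure D4:**
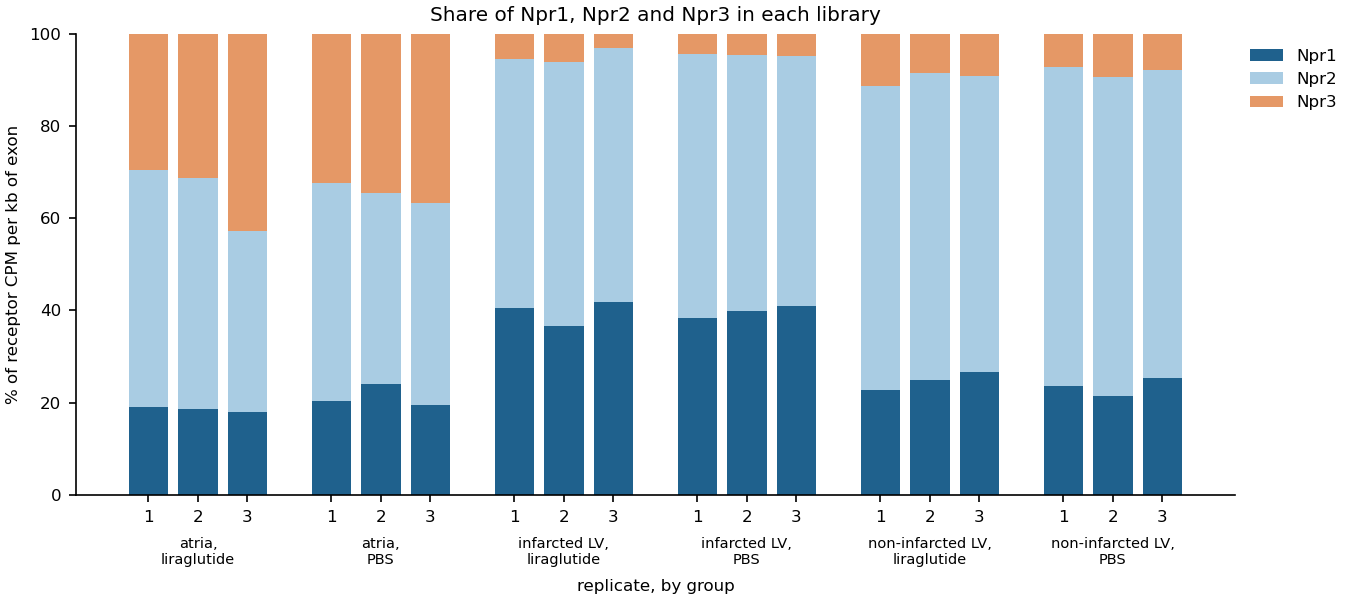
Share of Npr1, Npr2 and Npr3 in their summed CPM per kilobase of exon, in percent, for each library (bars, replicates 1 to 3), by region and treatment. Npr3 takes 29.5 to 42.7% in atria and 3.10 to 11.2% in LV, and Npr1 takes 36.7 to 41.8% in infarcted and 21.4 to 26.6% in non-infarcted LV.

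Liraglutide against PBS was the comparison the study was set up for. In edgeR's test 0 of the 9 members tested passed in atria, where 0.00739% of 13530 genes were called, and 0 of 9 in infarcted LV (0% of 12988) and in non-infarcted LV (0% of 12919). At an unadjusted p under 0.05 stood 1 member, Nppb in atria, beside 929, 681 and 561 genes in the 3 regions, and DESeq2 also called 0 members in each. For all 9 members tested the liraglutide and PBS libraries overlapped in every region. Over all genes, 14.9%, 9.69% and 8.96% did not overlap in atria, infarcted and non-infarcted LV in CPM, and 11.8%, 10.2% and 9.74% after scaling by TMM factors. In atria the scaling turns the balance of these genes, with 398 higher and 1621 lower in liraglutide libraries in CPM and 854 higher and 738 lower after scaling, so an atrial difference in mean CPM lies below its fitted value. The tests of whether the effect differed between regions also called 0 of 9. Over all genes the atrial count is 105 without liraglutide replicate 3, which is few beside the 13530 genes tested in the main fit. The members called stay at 0 there, which does not set them apart.

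The difference furthest from 0 in units of its error was that of Nppb in atria, with 1371 ± 257 CPM with liraglutide and 955 ± 222 CPM with PBS (SD, n = 3). Its log2 fold change was 0.63 (SE 0.234), with an unadjusted p of 0.0277 and an adjusted p of 0.645 in edgeR. Liraglutide replicates 1 and 2 were above every PBS library, and replicate 3 lay below PBS replicate 3. Replicate 1, the highest, is one of the atrial libraries with Myl2. Without it the value was 0.43 (adjusted p = 0.924), and leaving out any 1 library gave 0.43 to 0.85 for Nppb. Replicate 3 of that arm, with more Myl2 (924 against 275 CPM), had its lowest Nppb (1151 CPM). LV libraries had 363 to 1121 CPM of Nppb, against 1654 CPM in replicate 1. The part of ventricular RNA in the atrial Nppb difference was not tested. In infarcted LV the same gene had 1028 ± 110 and 1031 ± 37.1 CPM (0.01, SE 0.0941, adjusted p = 0.996), and in non-infarcted LV 459 ± 83.7 and 506 ± 216 CPM (-0.17, SE 0.395, adjusted p = 0.999). The atrial effect minus the non-infarcted one was 0.82 (SE 0.406, adjusted p = 0.938) and minus the infarcted one 0.63 (SE 0.405, adjusted p = 0.863).

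Nppa had lower mean CPM with liraglutide in all 3 regions, within the spread of the libraries. Its log2 fold changes were -0.10 in atria (SE 0.173, adjusted p = 0.968), -0.46 in infarcted LV (SE 0.220, adjusted p = 0.957) and -0.39 in non-infarcted LV (SE 0.454, adjusted p = 0.999). With single libraries left out the atrial value ran from -0.23 to 0.045, its upper end being the fit that drops liraglutide replicate 3. The ratio of Nppa to Nppb per kilobase, computed after both genes had been seen, does not depend on library totals. It was 16.3, 24.0 and 20.9 in atria with liraglutide and 34.6, 38.5 and 28.5 with PBS. The groups did not overlap, and the mean log2 ratio differed by -0.74 (exact two-sided permutation test, p = 0.1, the smallest that 3 against 3 libraries allow, 0.6 after adjustment over 6 ratios tested). In infarcted LV the ratio was 0.276 ± 0.0219 with liraglutide and 0.379 ± 0.0927 with PBS (SD, n = 3). Non-infarcted libraries gave 0.411 ± 0.179 and 0.568 ± 0.405 for the same arms. The arms overlapped in both LV regions (exact permutation p = 0.2 and 0.9).

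Of the receptors, Npr1 in atria had 35.7 ± 4.20 CPM with liraglutide and 44.8 ± 6.90 CPM with PBS (-0.23, SE 0.118, adjusted p = 0.766), and Npr3 in non-infarcted LV 22.8 ± 3.47 and 19.1 ± 3.18 CPM (0.24, SE 0.132, adjusted p = 0.999). Atrial Npr3 varied more with liraglutide (133 ± 49.0 CPM) than with PBS (142 ± 3.16 CPM). Without liraglutide replicate 3 its value was -0.27, against -0.01 with it. Corin, the ANP protease, had small positive values in all 3 regions, at 0.10, 0.14 and 0.14, with adjusted p of at least 0.933. Furin (0.04 to 0.23), Pam (-0.05 to 0.06) and Npr2 (-0.07 to 0.05) had adjusted p of at least 0.880. Mme in atria had 1.59 ± 0.531 CPM with liraglutide and 3.88 ± 4.07 CPM with PBS (-1.26, SE 0.657, adjusted p = 0.784), and 0.062 without the PBS library with adipocyte genes.

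**Figure D5:**
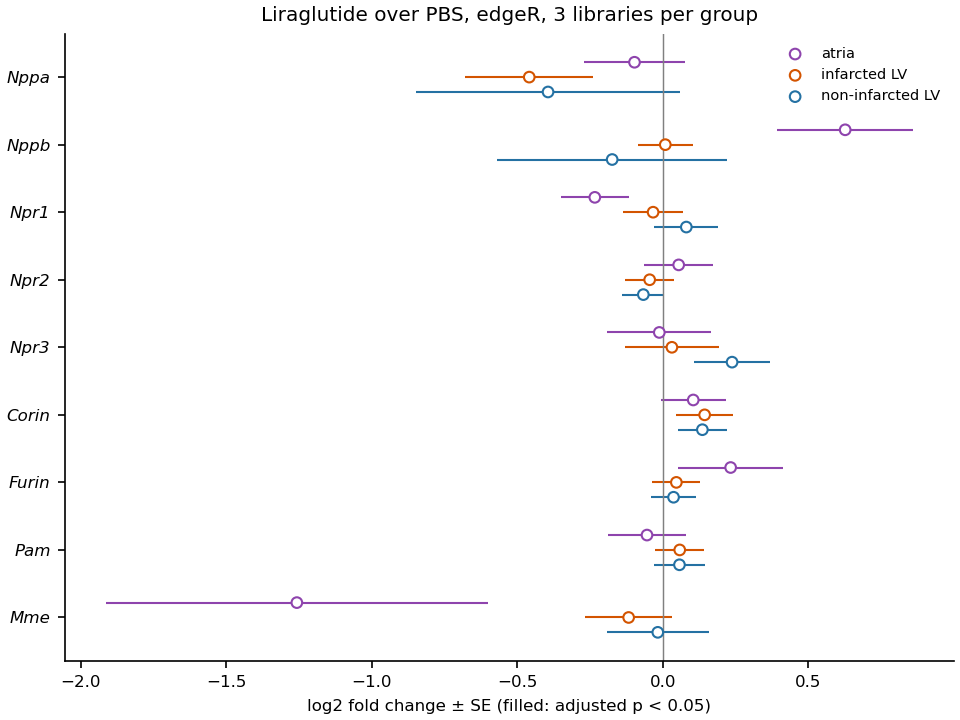
Log2 fold change ± SE of liraglutide over PBS for the 9 tested members in atria (purple), infarcted LV (orange) and non-infarcted LV (blue), 3 libraries per group; open points did not pass an adjusted p of 0.05. All points are open, Nppb in atria lies at 0.63 (SE 0.234) and Mme in atria at -1.26 (SE 0.657).

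Other genes of the pathway were followed in 4 lists. Of cGMP effectors and phosphodiesterases, 10 of 17 tested were higher and 3 lower in infarcted than in non-infarcted LV with liraglutide, and 9 were higher and 3 lower with PBS, beside the 49.8% and 47.4% of all genes called (median 0.54 and 0.50, against -0.02 over all genes in both). In PBS mice Vasp, a substrate of cGMP-dependent kinase, rose by 0.86 (SE 0.0865, adjusted p = 1.33e-06), Pde2a, a cGMP-stimulated phosphodiesterase, by 0.68 (SE 0.0759, adjusted p = 4.26e-06) and Pde10a by 1.45 (SE 0.179, adjusted p = 1.13e-05). Pln, the inhibitor of the calcium pump of the sarcoplasmic reticulum, fell by 0.68 (SE 0.0789, adjusted p = 5.64e-06). Between atria and non-infarcted LV the list was split, with 7 higher and 3 lower of 17 with liraglutide and 6 higher and 4 lower with PBS, beside 47.5% and 51.8% of all genes called. There Mrvi1, a partner of the kinase, rose by 2.81 in PBS mice, Gucy1a1 rose by 1.87, Pln fell by 2.49 and Cnga3, a cyclic nucleotide-gated channel, fell by 4.55 (highest adjusted p of these 4, 4.87e-05).

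Of other ligands and proteases of the system, 5 of 10 tested were higher and 1 lower in infarcted LV with liraglutide, and 5 higher and 2 lower with PBS (median 0.45 and 0.62), again beside 49.8% and 47.4% of all genes. In PBS mice the proprotein convertases Pcsk6, which in mouse activates corin, and Pcsk5 rose by 1.41 (SE 0.0770, adjusted p = 7.36e-09) and 1.47 (SE 0.193, adjusted p = 2.00e-05). The peptidases Ece1 and Ace rose by 0.96 and 1.08 (adjusted p = 5.08e-07 and 1.00e-05). In atria against non-infarcted LV 4 of 10 were higher and 2 lower with liraglutide (47.5% of all genes called), and 5 higher and 4 lower with PBS (51.8%). In PBS atria Ece1 was higher by 1.40, Dpp4, which trims BNP, by 2.67 and Galnt2, a glycosyltransferase, by 0.56, and Ide, the insulin-degrading enzyme that also cleaves ANP, fell by 0.60 (highest adjusted p of these, 0.00123).

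Of 19 tested factors known to act on the Nppa and Nppb promoters, 2 were higher and 5 lower in infarcted LV with liraglutide, and 2 higher and 6 lower with PBS (median -0.11 and -0.06), shares at or below the 49.8% and 47.4% of all genes called. In PBS mice Hand2 fell by 1.58, Tbx5 fell by 1.28, Tead1 fell by 0.48 and Gata4 fell by 0.41 (highest adjusted p, 0.00422), beside the lower cardiomyocyte markers given above. Between atria and non-infarcted LV 6 of 20 were higher and 3 lower with liraglutide (47.5% of all genes called), and 6 higher and 5 lower with PBS (51.8%). In PBS atria Tbx5 rose by 3.25, while Hand2 fell by 0.84 and Hey2, a ventricular repressor, fell by 2.07 (highest adjusted p, 0.00013). Of 8 tested neighbours of Nppb and Nppa on the chromosome, 1 was higher and 0 lower in atria than in non-infarcted LV with liraglutide (47.5% of all genes called), and 0 higher and 1 lower with PBS (51.8%), where Agtrap had -0.33 (SE 0.0916, adjusted p = 0.0109). In infarcted LV 1 rose and 4 fell with liraglutide (49.8%), and 2 rose and 3 fell with PBS (47.4%), where Agtrap had -0.53, Fbxo44 -0.73, Mfn2 -0.37 and Plod1 0.61 (highest adjusted p, 0.000832). With liraglutide against PBS, 0 genes of these 4 lists were called in any region.

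For the 4 members whose group means spanned at least 4-fold, the genes with the most similar profile over the 18 libraries were taken from 13021 genes, by the root mean square (RMS) difference of centred log2(CPM + 1). Nearest to Nppa, whose own RMS spread was 3.27, were Tmem163 at 0.53, Cilp2 at 0.69 and Hamp, the iron hormone hepcidin, at 0.69. Nearest to Pam (own RMS 1.79) were Gm12522 at 0.18, Sphkap, an anchor of protein kinase A, at 0.19 and Gata5, a GATA factor, at 0.21. Npr3 (1.38) was nearest to Nrg2 at 0.24, Slc24a4 at 0.24 and Kcnj3, a subunit of the atrial acetylcholine-gated potassium channel, at 0.26. Mme (0.89) was nearest to Fabp4, a fatty acid-binding protein of capillary endothelium and fat, at 0.24, Hsd11b1 at 0.35 and Rgcc at 0.36. Tmem163, Cilp2, Slc24a4, Gm12522, Sphkap and Gata5 in all LV groups, Hamp in non-infarcted and Nrg2 in infarcted LV had group means under 1 CPM, where the added 1 compresses the scale. It also compresses Mme itself in atria, at 1.12 to 2.20 CPM outside PBS replicate 2 (8.55 CPM). The genes nearest to Mme were not sought without that library.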

How the data were processed

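The authors deposited 1 table of unnormalised counts by gene symbol, with whole numbers in all 18 libraries. The submitters' processing notes name STAR 2.7.9a, the mm10 build and DESeq2 without a version. No source used here names the counting tool, strand setting or annotation. Per the labels' protocols the libraries are stranded and made from polyadenylated RNA. Library values are CPM of the column total. Per-kilobase values use the length of all exons annotated for a gene in GENCODE vM21, with overlaps counted once, not the length of the transcript expressed. Ratios and shares between genes depend on that choice. For each comparison the 6 libraries concerned were tested with edgeR 4.0.16 under R 4.3.3 (robust quasi-likelihood F test after filterByExpr, with TMM factors), with Benjamini-Hochberg adjustment over all genes tested and a threshold of 0.05. The SE was obtained by dividing the size of the log2 fold change by √F. Differences of the treatment effect between regions were contrasts in a fit of all 18 libraries. The procedure was tested on simulated data. No 2 libraries of a group repeat each other (chi-square per degree of freedom 2.65 to 62.9 over 18 pairs).

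Alternatives were DESeq2 1.42.0, RLE factors, no filter on low counts, all 18 libraries in the fit, a replicate block, each library left out, and atrial liraglutide replicate 3 and PBS replicate 2 left out together. The labels number libraries alike across groups. Deviations of same-numbered libraries correlated at 0.108 to 0.137 between the LV regions of PBS mice, above 0.1 for every pair, so these were taken as paired. The values given for that comparison, also those with a library left out, are still from fits without the block. Beside them stand only the block's count of members called and its value for Nppa. The block changed the call of no other member there. In the other comparisons at least 1 pair was below.

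The members and lists were chosen with earlier results of these data known. All members are named. Of each list, up to 4 genes per kind of comparison are named, those with the smallest p in PBS mice (for treatment none is named, as none was called). Genes of similar profile were sought for members whose group means spanned at least 4-fold and reached 5 CPM, among genes with a mean of at least 1 CPM, and the nearest 3 are named. One result that this rule would name is not reported here. No set test was run.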

Additional observations from a re-analysis of the deposited data

How the results depend on the processing

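The members' calls for liraglutide against PBS were 0 in each region under every alternative run. All counts of genes below are small beside the 12919 to 13920 genes tested in the main fits. A count of 0 members therefore does not set the members apart. The count over all genes was not stable. In atria, where edgeR called 1 gene, DESeq2 called 118, no filter on low counts 3, all 18 libraries in the fit 94, the replicate block 0, atrial liraglutide replicate 3 and PBS replicate 2 both left out 80, and single libraries left out 0 to 105. In infarcted LV, with 0 called, DESeq2 called 1, no filter 35 and single libraries left out 0 to 3. In non-infarcted LV, with 0, DESeq2 called 2, no filter 5 and single libraries left out 0 to 2. For the difference of the effect between atria and non-infarcted LV, with 0, DESeq2 called 58, no filter 1, the replicate block 1 and single libraries left out 0 to 118. Between atria and infarcted LV, with 0, DESeq2 called 30 and single libraries left out 0 to 117. The highest of these ranges, 105, 118 and 117, are all without atrial liraglutide replicate 3. The cause was not tested.

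Members called between infarcted and non-infarcted LV with PBS, 5, ran from 2 to 5 without single libraries (2 without infarcted replicate 1 or non-infarcted replicate 2, 3 without infarcted replicate 2 or 3). Of 450 other values under alternatives that keep all libraries or drop those 2 atrial ones, 433 kept direction and call, 3 lost it, 14 gained it and 0 changed sign. Of 666 values with 1 library left out, 603 kept both (or, for the ratio below, moved by less than the SD), 20 lost the call, 12 gained it and 31 changed sign, none of them called. Those with a change of sign ran, for liraglutide against PBS in atria, from -0.23 to 0.045 (Nppa), -0.0021 to 0.14 (Npr2), -0.27 to 0.12 (Npr3), -0.14 to 0.021 (Pam) and -1.61 to 0.062 (Mme). In infarcted LV they ran from -0.040 to 0.10 (Nppb), -0.14 to 0.080 (Npr1), -0.087 to 0.21 (Npr3) and -0.030 to 0.090 (Furin). In non-infarcted LV they ran from -0.38 to 0.28 (Nppb), -0.029 to 0.16 (Npr1), -0.021 to 0.087 (Furin), -0.029 to 0.11 (Pam) and -0.18 to 0.14 (Mme). In PBS mice they ran from -0.048 to 0.11 (Npr2, atria against non-infarcted LV), -0.33 to 0.035 (Nppb, atria against infarcted LV) and -0.14 to 0.020 (Npr2, the same). For differences of the effect they ran from -1.63 to 0.075 (Mme, atria minus non-infarcted LV), -1.54 to 0.17 (Mme, atria minus infarcted LV), and, infarcted minus non-infarcted LV, -0.26 to 0.40 (Nppb), -0.22 to 0.015 (Npr1) and -0.26 to 0.076 (Mme). The log2 ratio of Nppa to Nppb, liraglutide minus PBS, an alternative chosen after seeing the data, ran from -0.87 to -0.59 in atria, -0.65 to -0.32 in infarcted LV and -0.96 to 0.33 in non-infarcted LV, where its sign changed without 1 of 2 libraries, values that are not among the 31.

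The values of the replicate block for the LV regions of PBS mice are given with the results. Between the LV regions with liraglutide the block gave calls for Nppa (0.67, adjusted p = 0.0296) and Furin (-0.21, adjusted p = 0.0279). Between atria and non-infarcted LV with PBS the block gave a call for Nppb (0.85, adjusted p = 0.000108). It changed no other call of a member. In those comparisons the numbers are only shared, and every library correlated best with its own number in both, a hint from the data. For atria against LV, leaving out those 2 atrial libraries is, in each arm, the same fit as leaving out that 1 replicate.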

Other observations

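The spread between libraries differed widely among members. Npr2 in atria with liraglutide varied by 0.869% (SD over mean), Furin in infarcted LV with PBS by 1.81%, Nppa in non-infarcted LV with PBS by 49.3% and Nppb there by 42.6%. In atria Npr3 varied by 36.8% with liraglutide and 2.23% with PBS. Per kilobase, Corin exceeded Furin in every library, at 3.04 to 5.62 times in atria with liraglutide, 3.97 to 4.63 with PBS, 2.39 to 2.92 and 2.13 to 2.60 in infarcted LV, and 2.86 to 3.06 and 2.42 to 3.24 in non-infarcted LV. Neutrophil markers were higher in PBS atria than in PBS non-infarcted LV (5 of 5 called, median 3.63, beside 51.8% of all genes called). Their summed levels were 197 to 669 CPM against 22.4 to 41.1 CPM. With liraglutide the sums were 74.7 to 366 CPM in atria and 24.4 to 37.8 CPM in non-infarcted LV.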
